A study of Mus musculus with 22 samples.

Results

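Arg1, Nos2, Il10, Il4ra and Stat6 were described in G-MDSCs from mouse mammary tumours treated with entinostat with or without checkpoint antibodies. G-MDSCs are the granulocytic kind of myeloid-derived suppressor cell, immature neutrophil-like cells that restrain T cells. The 5 genes are classical suppressive effectors of myeloid cells together with the receptor chain and transcription factor that induce arginase, and they were taken by name from the 655 endogenous genes of a NanoString mouse myeloid panel. All 5 were on the panel, and 3 of them (Arg1, Il4ra and Stat6) passed the filter on low values and were tested, against 420 tested genes in all. Nos2 and Il10 lay near the background of the assay and were not tested.

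Arginase 1 breaks down the arginine that T cells need to proliferate, and the inducible nitric oxide synthase encoded by Nos2 turns the same amino acid into nitric oxide, so that the enzymes compete for a substrate. Interleukin-10 is a secreted cytokine that dampens antigen presentation and inflammatory cytokine production. IL-4 and IL-13 bind receptors that contain the IL-4 receptor alpha chain, Janus kinases then phosphorylate STAT6, and STAT6 switches on Arg1 and other genes in mouse macrophages; in tumour-bearing mice this receptor chain has been used as a marker of suppressive myeloid cells.

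There were 22 samples in 5 groups, all from female FVB-Neu-N mice with NT2.5 tumours. Neu-N mice carry the rat neu proto-oncogene under the MMTV promoter, NT2.5 is a mammary tumour line from that model, and 50000 cells were injected into the mammary fat pad at 7 to 8 weeks of age. Treatment began 3 days later and lasted 3 weeks. Entinostat is an inhibitor of class I histone deacetylases, given daily by mouth at 5 mg/kg in 0.5% methylcellulose, and anti-PD-1 and anti-CTLA-4 are antibodies that block inhibitory receptors of T cells, given at 100 µg per mouse 2 times a week. The groups were entinostat alone (n = 4), entinostat plus anti-PD-1 (n = 4), entinostat plus anti-CTLA-4 (n = 4), entinostat with both antibodies, called the triple combination (n = 4), and vehicle, which was methylcellulose with isotype antibodies (n = 6; another label field names PBS with methylcellulose). The labels also mention an anti-HER2 antibody in some of the model's experiments and do not say whether these mice received it. No group received anti-PD-1 or anti-CTLA-4 without entinostat. Of the vehicle samples, 2 carry the names V1 and V2, for which no label gives a reason. Replicates of a group that share 1 column name, with the same number, are called samples a and b. The labels do not tie samples to single animals, so p-values measure the spread between these samples, which may be technical.

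The measured cells were Ly6G-positive cells selected on magnetic columns. The neutrophil genes S100a8 and S100a9 reached 12607 and 24140 normalized counts, while Ly6g itself stayed between 1.74 and 30.2 normalized counts (median 6.40), near background, and Cdh1, the epithelial cadherin, was present at 717 to 1310. Recovered barcode counts summed to between 23296 (triple combination sample 2) and 443796 (entinostat plus anti-CTLA-4 sample 1) per sample, with a median of 179363. The 20 housekeeping genes were level, with geometric means from 172 to 194 normalized counts, whereas the median endogenous gene ran from 23.6 to 78.2. Whether the deposited scaling used the housekeeping genes is not stated, so their evenness is no separate check of it. The 78.2 came from triple combination sample 2 and lay below that sample's background limit of 79.8 normalized counts, as defined below. The summed level of 16 neutrophil markers differed between samples of a group as well: it was 22412.6 in entinostat plus anti-CTLA-4 sample a against 3562.0 to 7550.2 in the other 3 samples, and 25120.6 in vehicle sample 2 against 5932.4 to 11676.8 in the other 5. In bulk samples like these, fewer cells of a type and less RNA per cell cannot be told apart. The column names carry 2 dates, each with its own number, and these 2 sets of columns are called cartridges here. The first held all samples of entinostat alone and of its combination with anti-PD-1, and the second all of its combination with anti-CTLA-4. The triple combination (1 and 3 samples) and vehicle (3 and 3) were on both. A difference between cartridges is therefore also one between dates.

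The first question was which of the 5 genes could be measured. The 8 negative controls, which carry no target in mouse RNA, set a background limit at 2 SD above their mean: 29.3 normalized counts over all samples for group means, and a limit in barcode counts for each sample from its own controls. Il4ra and Stat6 exceeded their own limit in 22 of 22 samples, with 57 to 507 and 21 to 350 barcode counts. Arg1 exceeded it in 21 of 22 samples, with 8 to 102 counts and a median of 2.74 times the limit (the value not above it was triple combination sample 2, at 8 counts and 0.98 of its limit). Nos2 exceeded it in 14 of 22 samples, with 6 to 37 counts and a median of 1.16 times the limit, and in 10 samples when the limit was raised to 3 SD. Il10 exceeded it in 4 of 22 samples, with 3 to 18 counts and a median of 0.67 of the limit, and in 2 samples at 3 SD. Geometric group means were above 29.3 normalized counts in 5 of 5 groups for Il4ra and for Stat6, in 4 of 5 for Arg1 and in 0 of 5 for Nos2 and for Il10. Il4ra and Stat6 were therefore measured well above background, Arg1 was close to it in several samples, and Nos2 and Il10 were at or near it.

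**Figure D1:**
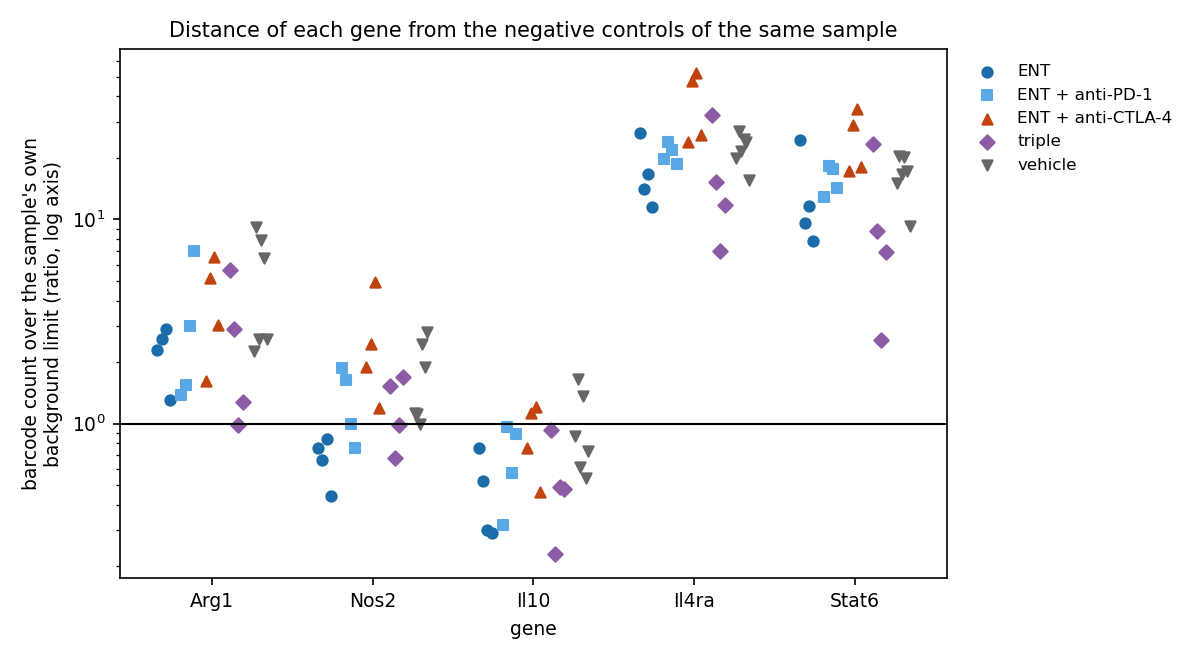
Barcode count of each gene divided by the background limit of the same sample (log axis), 1 point per sample, by treatment group from entinostat (ENT) to vehicle; the line at 1 is the limit. Il4ra and Stat6 lie above the line in all 22 samples, Arg1 in 21, Nos2 in 14 and Il10 in 4.

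**Figure D2:**
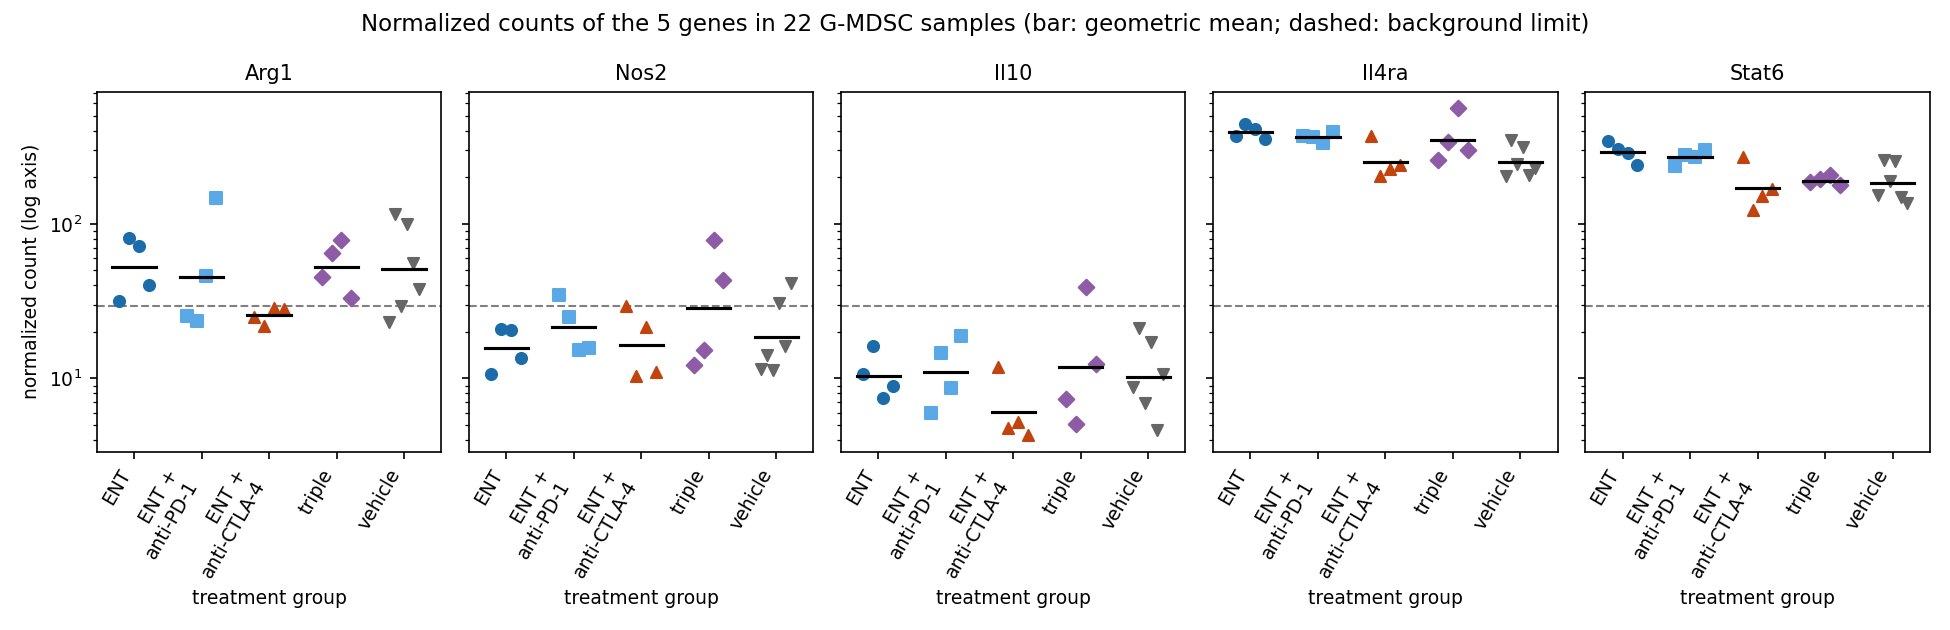
Normalized count (log axis) of the 5 genes in each of 22 samples by treatment group; bars are geometric means and the dashed line is the background limit of 29.3 normalized counts. Il4ra had its highest geometric mean with entinostat (393), and Stat6 was high with entinostat alone or with anti-PD-1 added (238 to 342). For Arg1, Nos2 and Il10 groups next to each other by geometric mean overlapped. The Arg1 values with entinostat plus anti-CTLA-4 lay below all those with entinostat alone and in the triple combination.

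Arg1, the effector that consumes arginine by hydrolysis, did not pass the test in any comparison and varied more within groups than between them. In the entinostat samples it had 31.9, 81.2, 71.5 and 40.5 normalized counts. Under entinostat plus anti-PD-1 it had 25.45, 23.4, 46.0 and 147. The lowest and the highest values differed several-fold inside that group.

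Under entinostat plus anti-CTLA-4 (samples a, 1, b and 3) Arg1 had 25.1, 21.98, 28.4 and 28.25 normalized counts, all below the limit for group means though above each sample's own limit. In the triple combination (samples a, b, 2 and 4) it had 44.9, 64.25, 78.2 and 33.1. Vehicle samples ran from 23.0 to 116 with a median of 47.0. The entinostat plus anti-CTLA-4 samples were uniformly low, and every group overlapped the vehicle samples.

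Group means of Arg1 were 56.3 ± 23.8 with entinostat, 60.5 ± 58.6 with entinostat plus anti-PD-1, 25.9 ± 3.04 with entinostat plus anti-CTLA-4 and 55.1 ± 20.05 in the triple combination (SD, n = 4 each), against 60.4 ± 38.8 normalized counts in vehicle (SD, n = 6). On the scale of log2(normalized count + 1), limma gave differences from vehicle of 0.045 ± 0.49 with entinostat (SE; adjusted p = 0.938), -0.17 ± 0.49 with entinostat plus anti-PD-1 (adjusted p = 0.817) and 0.044 ± 0.49 in the triple combination (adjusted p = 0.946). The 95% interval for entinostat ran from 0.507-fold to 2.10-fold, so changes within that range in either direction were not excluded. The largest difference was with entinostat plus anti-CTLA-4, -0.95 ± 0.49, with all 4 samples below the vehicle mean. It had an unadjusted p of 0.0677 in limma and an adjusted p of 0.960, and 0.5% of the 420 tested genes had a lower log2 fold change in that comparison. Among the groups ordered by geometric mean (52.4 with entinostat, 52.3 in the triple combination, 50.75 in vehicle, 45.0 with anti-PD-1 added and 25.8 with anti-CTLA-4 added), each overlapped its neighbour.

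The 5 samples with the most Arg1 were also the 5 with the highest summed level of 9 monocyte and macrophage markers. None of them was from entinostat plus anti-CTLA-4. They were entinostat plus anti-PD-1 sample 4 (147 normalized counts of Arg1, marker sum 3366.8), entinostat sample 2 (81.2 and 3328.0), triple combination sample 2 (78.2 and 2893.9), vehicle sample 2 (116 and 3380.4) and vehicle sample 3 (99.5 and 2709.8). The value of triple combination sample 2 was 8 barcode counts and lay below that sample's own limit, so its rank above entinostat sample 3 (71.5) is not resolved. In the other 17 samples Arg1 reached 71.5 and the marker sum 1946.9, and the orders did not match. Triple combination sample 4 and entinostat plus anti-CTLA-4 sample a ranked 6 and 7 for the marker sum but 13 and 19 for Arg1. Vehicle sample V1 ranked 8 for Arg1 and 19 for the marker sum. The genes most like Arg1 across the 22 samples, by Pearson's r of log2(normalized count + 1), were Cx3cr1 (0.779), the chemokine receptor of monocytes and macrophages, Fcgr2b (0.765), the inhibitory Fc receptor, Fn1 (0.752), fibronectin, Ccl12 (0.749), a chemokine that attracts monocytes, and C3ar1 (0.746), the receptor for complement C3a. After each sample was centred on its median gene, these r were 0.541 to 0.625. None of the 7 tested monocyte and macrophage markers passed in any comparison, and the part of these cells in the Arg1 values was not tested.

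Nos2, the effector that makes nitric oxide, had a geometric mean below 29.3 normalized counts in each of the 5 groups. It had 10.6, 20.9, 20.7 and 13.5 normalized counts with entinostat and 34.4, 24.8, 15.3 and 15.85 with entinostat plus anti-PD-1. It had 29.5, 10.4, 21.45 and 11.05 with entinostat plus anti-CTLA-4 and 12.2, 15.2, 78.2 and 43.4 in the triple combination, against 11.3 to 41.1 in vehicle (median 15.2). The highest value, 78.2 in triple combination sample 2, was 8 barcode counts in the sample of lowest depth and lay below that sample's own limit.

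Group means of Nos2 were 16.4 ± 5.18 normalized counts with entinostat, 22.6 ± 9.00 with anti-PD-1 added, 18.1 ± 9.15 with anti-CTLA-4 added and 37.25 ± 30.7 in the triple combination (SD, n = 4 each), against 20.9 ± 12.3 in vehicle (SD, n = 6). Nos2 exceeded the sample's own limit in 0 of 4 entinostat samples, 3 of 4 with anti-PD-1 added, 4 of 4 with anti-CTLA-4 added, where it reached 4.93 times the limit in sample b, 2 of 4 in the triple combination and 5 of 6 in vehicle. These limits are in barcode counts, and a gene's barcode count rises with the depth of the sample. Depth was 107446 to 162080 counts with entinostat and 165662 to 443796 with anti-CTLA-4 added. The number of samples above the limit is therefore no measure of treatment, and the part of depth in it was not tested. All neighbouring groups overlapped in normalized counts. With the filter removed, so that all 655 genes were fitted with limma, Nos2 differed from vehicle by -0.21 ± 0.48 with entinostat (adjusted p = 0.761), and its adjusted p was 0.487 or higher in all 7 contrasts.

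Il10, the suppressive cytokine of the set, was the gene closest to background. It had 10.6, 16.25, 7.53 and 8.99 normalized counts with entinostat and 5.99, 14.6, 8.63 and 18.7 with entinostat plus anti-PD-1. It had 11.8, 4.80, 5.22 and 4.3 with entinostat plus anti-CTLA-4 and 7.40, 5.07, 39.1 and 12.4 in the triple combination, against 4.66 to 21.2 in vehicle (median 9.75). The value of 39.1 was 4 barcode counts.

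Il10 means were 10.85 ± 3.82 with entinostat, 12.0 ± 5.76 with anti-PD-1 added, 6.54 ± 3.54 with anti-CTLA-4 added and 16 ± 15.7 in the triple combination (SD, n = 4 each), against 11.6 ± 6.34 in vehicle (SD, n = 6), and all neighbouring groups overlapped. Without the filter, limma gave a difference of 0.018 ± 0.47 between entinostat and vehicle (adjusted p = 0.979), and the adjusted p was 0.424 or higher in all 7 contrasts. Differences in Nos2 and Il10 were not detected at these counts, which does not show that the genes were absent or equal.

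Il4ra and Stat6 are shown with their promoters because only these 2 of the 5 genes had a promoter window in the reference. They were also the members that passed a test, in the same comparison. Promoter windows of RefSeq on GRCm38.p6 run from 250 bases before to 50 bases after the annotated start, with the 50 bases from the start onward in capitals, and 2 of the 5 genes were matched. Il4ra is at chr7:125552021-125552320 and Stat6 at chr10:127642736-127643035, both on the plus strand.
Il4ra: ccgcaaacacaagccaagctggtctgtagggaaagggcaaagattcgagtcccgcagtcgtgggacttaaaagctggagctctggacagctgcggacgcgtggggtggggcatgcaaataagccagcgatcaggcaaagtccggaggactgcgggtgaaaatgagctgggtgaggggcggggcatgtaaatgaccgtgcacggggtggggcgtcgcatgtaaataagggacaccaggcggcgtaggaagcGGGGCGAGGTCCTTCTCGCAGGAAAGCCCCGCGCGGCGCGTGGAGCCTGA
Stat6: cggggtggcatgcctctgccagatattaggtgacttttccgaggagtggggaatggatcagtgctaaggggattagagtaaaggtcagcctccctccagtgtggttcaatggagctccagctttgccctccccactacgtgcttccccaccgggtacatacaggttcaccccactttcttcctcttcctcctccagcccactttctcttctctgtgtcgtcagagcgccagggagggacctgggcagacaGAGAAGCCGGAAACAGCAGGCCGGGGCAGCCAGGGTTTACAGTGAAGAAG
The Il4ra window was the richer in CpG, with 25 CpG dinucleotides and 62.0% GC, against 8 and 57.3% in Stat6 and medians of 7 and 52.7% over 32851 windows. Both strands were searched for 5 motifs. The GC box GGGCGG, which 35.66% of windows hold, began at position -76 of Il4ra on the plus strand and was not found in Stat6. The STAT-type sites TTCNNNGAA (8.30% of windows) and the same with 4 bases between TTC and GAA (6.95%), the CCAAT box (37.4%) and the TATA box TATAAA (13.6%) were not found in either window, which says only that these letters are not in these bases.

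The second question was whether entinostat changed the genes, and Il4ra and Stat6 were both higher in entinostat samples than in vehicle samples on the deposited scale. Il4ra, the receptor chain for IL-4 and IL-13, had 370, 443, 410.3 and 353 normalized counts with entinostat, against 204 to 346 in vehicle (median 236). All 4 entinostat samples lay above all 6 vehicle samples, as they did for 15.5% of the 420 tested genes. The means were 394 ± 40.55 (SD, n = 4) and 257 ± 58.7 (SD, n = 6), and limma gave a log2 difference of 0.64 ± 0.21 (adjusted p = 0.0212), 1.56-fold with a 95% interval from 1.16-fold to 2.10-fold.

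Stat6, the transcription factor that the receptor activates, had 342, 304, 286 and 241 normalized counts with entinostat, against 136 to 259.8 in vehicle (median 171). All 4 entinostat samples were above the vehicle mean and 3 of 4 were above every vehicle sample. The means were 293 ± 42.1 (SD, n = 4) and 190.1 ± 54.7 (SD, n = 6), with a log2 difference of 0.66 ± 0.21 in limma (adjusted p = 0.0194), 1.58-fold with an interval from 1.17-fold to 2.13-fold.

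These 2 of 3 tested members stood against 40.0% of all 420 genes called in the same comparison, 36.2% as higher and 3.81% as lower, and the median of all genes was itself 0.50 higher on the log2 scale. The 168 genes behind that share were 98 without entinostat sample 2, 80 without entinostat sample 3 and 54 without V1 and V2. Relative to that median Il4ra was 0.14 and Stat6 0.16 higher, and 54.5% and 56.0% of the tested genes had a lower log2 fold change. When each sample was centred on its median gene, the differences were 0.10 for Il4ra (adjusted p = 0.579) and 0.12 for Stat6 (adjusted p = 0.550), with quantile normalization 0.052 and 0.11, and with TMM factors in edgeR -0.025 and -0.0079, and none of these passed. After median centring 1 of 4 entinostat samples lay above every vehicle sample for Il4ra. Both passed within the first cartridge, which had 4 entinostat and 3 vehicle samples: 0.60 for Il4ra (adjusted p = 0.0352) and 0.57 for Stat6 (adjusted p = 0.0497). With the cartridge as a block they were 0.71 (adjusted p = 0.0280) and 0.61 (adjusted p = 0.0481).

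Without vehicle samples V1 and V2 neither passed, at 0.54 for Il4ra (adjusted p = 0.0926) and 0.47 for Stat6 (adjusted p = 0.102). Both were also lost without entinostat sample 2 (0.58 and 0.64, adjusted p = 0.0676 and 0.0529) or without entinostat sample 3 (0.62 and 0.67, adjusted p = 0.0624 and 0.0503), and Stat6 without entinostat sample 1 (0.58, adjusted p = 0.0584). Without vehicle sample 2, the one with many neutrophil transcripts, they were 0.73 and 0.76 (adjusted p = 0.00768 and 0.00560). Neutrophil and other leukocyte markers moved with these genes. All 12 tested neutrophil markers were higher with entinostat, with a median log2 difference of 1.77. Camp, 1 of the 12, passed the filter only through the entinostat group; under the stricter filter, which it fails, 11 of 11 were higher with a median of 1.73. Entinostat samples had a summed level of 21353.5 to 41362.2 normalized counts against 5932.4 to 25120.6 in vehicle. All 6 leukocyte markers of the panel were higher, with sums of 3703.2 to 5557.5 against 933.3 to 4131.5. Cdh1 was the only 1 of 12 listed tumour cell markers on the panel and had a log2 difference of -0.41 ± 0.16 (adjusted p = 0.0418). The part of these markers in the Il4ra and Stat6 values was not tested.

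**Figure D3:**
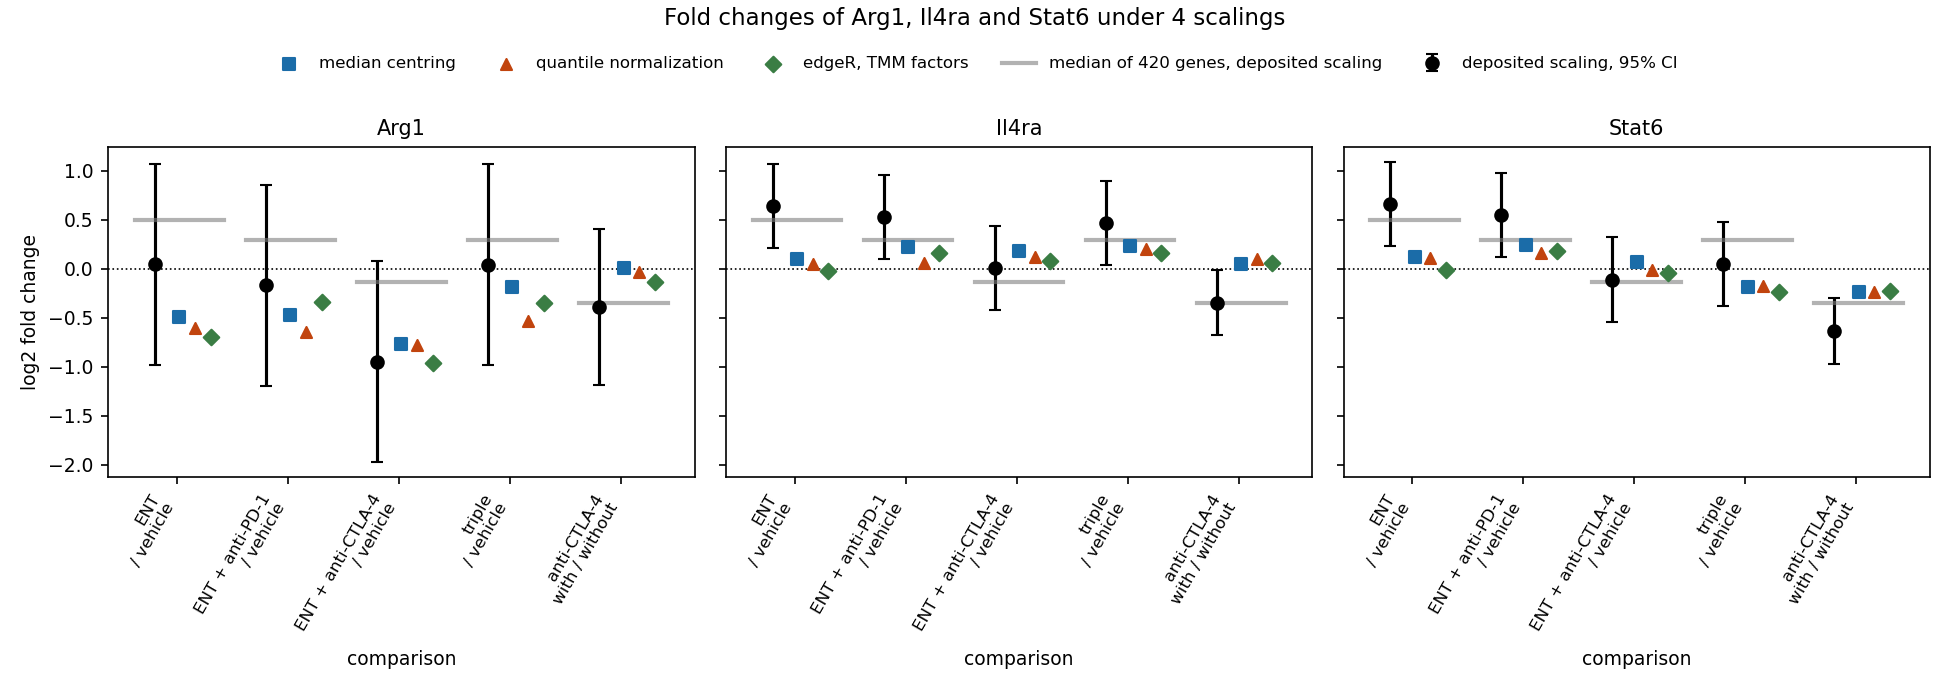
Log2 fold change of Arg1, Il4ra and Stat6 in 4 comparisons with vehicle and in the contrast with against without anti-CTLA-4, with the deposited scaling (black, 95% interval), after median centring, quantile normalization and TMM scaling, and the median of 420 genes as a grey line. For Il4ra and Stat6 the entinostat points at 0.64 and 0.66 lie close to the grey line at 0.50 and move to between -0.025 and 0.12 under the other scalings.

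With anti-PD-1 added to entinostat, Il4ra and Stat6 had values near those of entinostat alone, and these comparisons share the vehicle samples. Il4ra had 367, 362, 334 and 391 normalized counts, a mean of 363 ± 23.3 (SD, n = 4) against 257 ± 58.7 in vehicle (SD, n = 6). Stat6 had 238, 279, 269 and 298, a mean of 271 ± 25.2 (SD, n = 4) against 190.1 ± 54.7 (SD, n = 6). For each gene all 4 samples were above the vehicle mean and 3 of 4 above every vehicle sample; 8.81% of the tested genes had all 4 above every vehicle sample.

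The log2 differences with entinostat plus anti-PD-1 were 0.53 ± 0.21 for Il4ra (adjusted p = 0.0731) and 0.55 ± 0.21 for Stat6 (adjusted p = 0.0600). So 0 of 3 tested members passed in limma, and 0 in edgeR, in a comparison in which 21.9% of the 420 genes did (20.5% as higher and 1.43% as lower), while 2 of 3 had an unadjusted p under 0.05. The 92 genes behind that share rested on single samples: 1 gene passed without vehicle sample 1, without vehicle sample 4, or without sample 1, 2 or 4 of entinostat plus anti-PD-1. Without V1 there were 13, without V2 7, without both 0, without vehicle sample 2 140, and with the cartridge block 3. The median of all genes was 0.29. Without vehicle sample 2 both passed (0.62 and 0.65, adjusted p = 0.0270 and 0.0185), as they did without sample a of entinostat plus anti-CTLA-4, which enters through the shared spread (adjusted p = 0.0401 and 0.0220). Il4ra passed without triple combination sample 2 (adjusted p = 0.0413), and Stat6 without vehicle sample 3 (0.64, adjusted p = 0.0307) or without entinostat plus anti-CTLA-4 sample 1 (adjusted p = 0.0485).

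With anti-CTLA-4 added to entinostat, Il4ra and Stat6 were near the vehicle level in 3 of 4 samples. Il4ra had 371, 203, 226 and 239 normalized counts in samples a, 1, b and 3, and Stat6 had 269, 123, 152 and 168. Sample a, which also had the high neutrophil sum, was the highest of its group for both and above every vehicle sample.

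The means with entinostat plus anti-CTLA-4 were 259.8 ± 75.55 for Il4ra and 178 ± 63.5 for Stat6 (SD, n = 4), against 257 ± 58.7 and 190.1 ± 54.7 in vehicle (SD, n = 6). Limma gave 0.0057 ± 0.21 for Il4ra (adjusted p = 0.992) and -0.11 ± 0.21 for Stat6 (adjusted p = 0.971), and without sample a -0.18 (adjusted p = 0.548) and -0.33 (adjusted p = 0.264). None of the 3 tested members passed in the unweighted limma fit or edgeR or had an unadjusted p under 0.05. Of the 420 genes, 0.0% were called and 6 had an unadjusted p under 0.05, which was 109 without sample a, and 18 genes passed with sample weights.

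In the triple combination Il4ra lay above the vehicle mean in all 4 samples, while Stat6 lay inside the vehicle range. Il4ra had 258, 338, 557 and 302 normalized counts in samples a, b, 2 and 4, a mean of 364 ± 133 (SD, n = 4) against 257 ± 58.7 in vehicle (SD, n = 6). Stat6 had 185, 194, 205 and 178, a mean of 191 ± 11.9 (SD, n = 4) against 190.1 ± 54.7 (SD, n = 6). The value of 557 for Il4ra was 57 barcode counts in the sample of lowest depth.

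The log2 differences from vehicle in the triple combination were 0.47 ± 0.21 for Il4ra, with 4 of 4 samples above the vehicle mean and 1 of 4 above every vehicle sample (unadjusted p = 0.0352 in limma, adjusted p = 0.333), and 0.050 ± 0.21 for Stat6 (adjusted p = 0.866). Without triple combination sample 2, Il4ra was at 0.24 (adjusted p = 0.737). None of the 3 tested members passed in the unweighted limma fit or edgeR, and Il4ra passed with sample weights. Of the 420 genes, 0.0% passed, against 126 genes with sample weights, and 59 had an unadjusted p under 0.05. For 1.19% of them all 4 triple combination samples lay above every vehicle sample.

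The third question was what each antibody added to entinostat, and Stat6 was lower in the 8 samples with anti-CTLA-4 than in the 8 without it. Stat6 ran from 123 to 269 normalized counts with anti-CTLA-4 (median 181, mean 184 ± 42.9, SD, n = 8), against 238 to 342 without it (median 282, mean 282 ± 34.2, SD, n = 8). All 8 samples with the antibody were below the mean of the others and 7 of 8 were below every one of them, the exception being entinostat plus anti-CTLA-4 sample a; for 7.14% of the tested genes all 8 were. The main effect of anti-CTLA-4 was -0.64 ± 0.16 in limma (adjusted p = 0.00625), 0.644-fold with an interval from 0.511-fold to 0.811-fold, and -0.74 (adjusted p = 0.000306) without sample a.

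Il4ra ran from 203 to 557 normalized counts with anti-CTLA-4 (median 279.9, mean 312 ± 115, SD, n = 8), against 334 to 443 without it (median 369, mean 379 ± 34.8, SD, n = 8). The main effect was -0.35 ± 0.16 (adjusted p = 0.0972), with 7 of 8 samples below the mean of the others. It passed without sample a of entinostat plus anti-CTLA-4 (-0.44, adjusted p = 0.0204) or without triple combination sample 2 (-0.46, adjusted p = 0.0167). Arg1 ran from 21.98 to 78.2 with the antibody and from 23.4 to 147 without it, with a main effect of -0.39 ± 0.38 (adjusted p = 0.416).

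So 1 of 3 tested members passed for anti-CTLA-4, where 32.1% of the 420 genes did (30.0% as lower and 2.14% as higher) and the median of all genes was -0.35. The 135 genes behind that share were 219 without sample a of entinostat plus anti-CTLA-4. Stat6 was 0.29 below that median, and 39.0% of genes had a lower value, while Il4ra equalled it. After median centring Stat6 was at -0.24 (adjusted p = 0.119), with quantile normalization at -0.24 (adjusted p = 0.107) and with TMM at -0.22 (adjusted p = 0.153). With the cartridge as a block it was at -0.54 (adjusted p = 0.114), and 0 of the 420 genes passed. Of the 8 samples with anti-CTLA-4, 1 was on the first cartridge, and all 8 without it were there, so that apart from this sample cartridge and antibody cannot be told apart. All 12 neutrophil markers were lower with anti-CTLA-4 as well, with a median of -1.28, and their part in the result was not tested. Camp, 1 of the 12, passed the filter only through the entinostat group, which is on the side without anti-CTLA-4. Its call here is therefore no test of a change.

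Anti-PD-1 had main effects of 0.39 ± 0.38 for Arg1 (adjusted p = 0.735), 0.17 ± 0.16 for Il4ra (adjusted p = 0.734) and 0.027 ± 0.16 for Stat6 (adjusted p = 0.966). None of the 3 members passed in the unweighted limma fit or edgeR or had an unadjusted p under 0.05. Of the 420 genes, 0.0% passed and 12 had an unadjusted p under 0.05, which was 115 without sample a of entinostat plus anti-CTLA-4, and 87 genes passed with sample weights. For Stat6 the interval ran from 0.809-fold to 1.28-fold.

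The interaction asks whether anti-PD-1 acts differently with anti-CTLA-4 present. It was 1.21 ± 0.76 for Arg1 (adjusted p = 0.287), 0.58 ± 0.32 for Il4ra (adjusted p = 0.263) and 0.27 ± 0.32 for Stat6 (adjusted p = 0.527), with a median over all genes of 0.61. None of the 3 members passed in the unweighted limma fit or edgeR or had an unadjusted p under 0.05, and all 3 passed with sample weights. Of the 420 genes, 0.0% passed and 81 had an unadjusted p under 0.05. The number of genes that passed was 152 without sample a of entinostat plus anti-CTLA-4, 56 with the replicate number as a block and 239 with sample weights.

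Across all 5 groups the moderated F test of limma gave adjusted p = 0.0460 for Il4ra, 0.0240 for Stat6 and 0.425 for Arg1, so that 2 of 3 members passed where 33.1% of the 420 genes did. This count of 2 was 0 under median centring, quantile normalization, TMM and the cartridge block, it ran from 0 to 2 with 1 sample left out, and it moved in 25 alternatives and held in 10; the call of Il4ra was lost in 25 and held in 10. By geometric mean, Il4ra was ordered entinostat (393), entinostat plus anti-PD-1 (363), triple combination (348), entinostat plus anti-CTLA-4 (253) and vehicle (252), and each group overlapped its neighbour. Stat6 was ordered entinostat (291), entinostat plus anti-PD-1 (270.0), triple combination (190.4), vehicle (184) and entinostat plus anti-CTLA-4 (170.3). The entinostat plus anti-PD-1 and triple combination samples did not overlap for Stat6, and its other neighbours did. The share of the 420 genes that separate between these groups was not counted, so this is no result about Stat6 itself. The first cartridge held 4 samples of entinostat plus anti-PD-1 and 1 of the triple combination.

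Il4ra and Stat6 followed the median gene of the sample closely. Over the 22 samples Pearson's r with the median log2 value of the 420 tested genes was 0.898 for Il4ra, 0.848 for Stat6 and 0.549 for Arg1, values that share the scaling of each sample. Il4ra and Stat6 correlated with each other at 0.802, and at 0.174 after each sample was centred on its median gene. Arg1 correlated with Il4ra at 0.486 and with Stat6 at 0.413, and at -0.010 and -0.11 after centring.

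**Figure D4:**
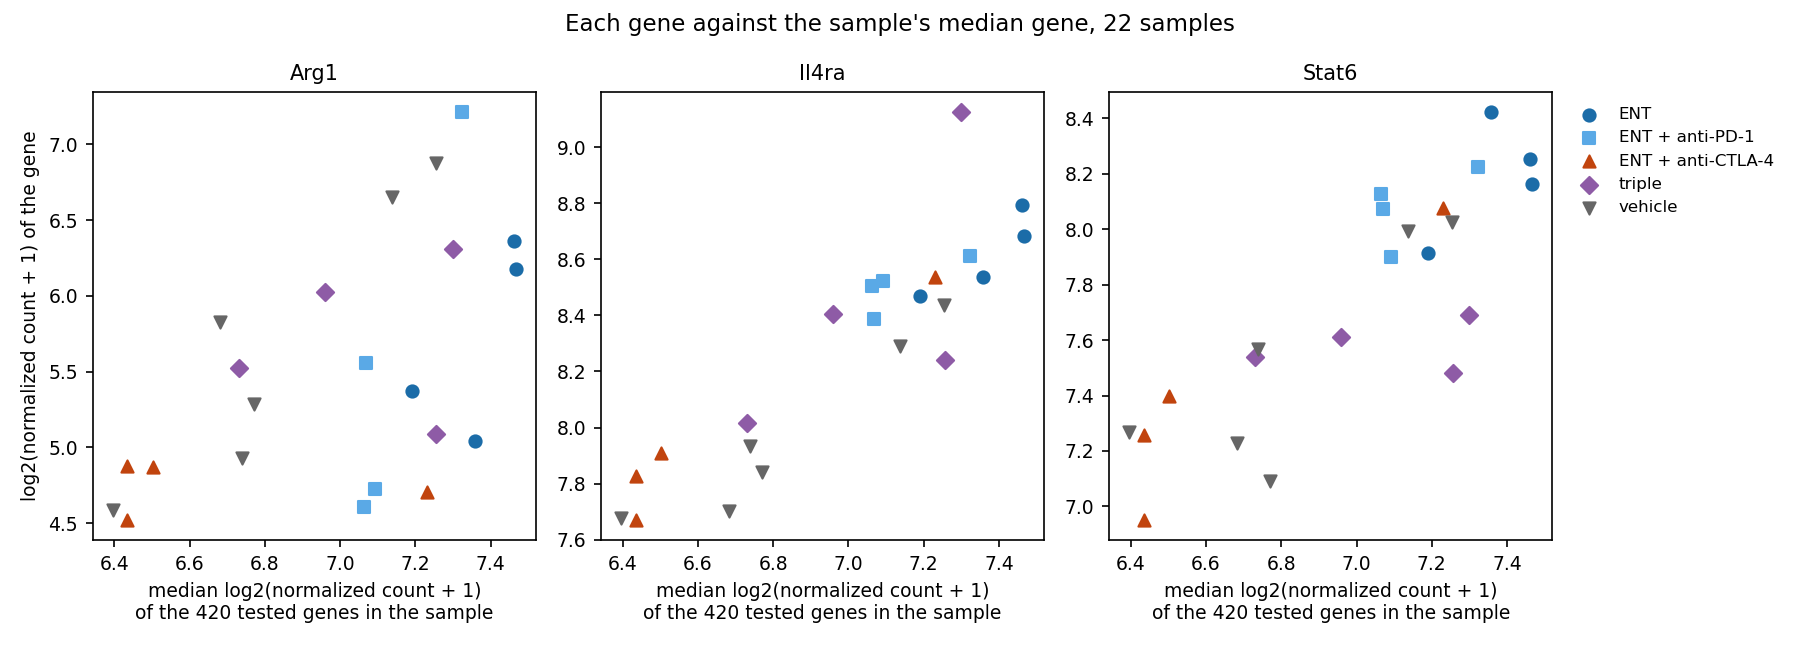
Log2(normalized count + 1) of Arg1, Il4ra and Stat6 against the median over the 420 tested genes of the same sample, 1 point per sample, by treatment group. Il4ra and Stat6 rise with the sample median in all groups together (r = 0.898 and 0.848), and Arg1 is spread more widely (r = 0.549).

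The genes most like Il4ra were Isg15, an interferon-induced ubiquitin-like protein (r = 0.943, and 0.709 after centring), Cd274, which encodes PD-L1 (0.941 and 0.371), Fcgr4, an activating Fc receptor (0.934 and 0.479), Nfkbie, an inhibitor of NF-kappaB (0.932 and 0.324), and Socs3, a feedback inhibitor of cytokine receptors (0.930 and 0.364). The genes most like Stat6 were Fpr2, a formyl peptide receptor (0.928 and 0.395), Nfil3, a leucine zipper transcription factor (0.923 and 0.750), Hif1a, the hypoxia-inducible factor subunit (0.915 and 0.575), Tnfrsf1b, a TNF receptor (0.914 and 0.578), and Cytip (0.914 and 0.483). Isg15 ranked first for Il4ra both before and after centring, while for Stat6 Fpr2 ranked first before centring and Nfil3 after it.

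Other genes around these members rose with entinostat in several lists. All 12 tested neutrophil markers rose in the same comparison (11 of 11 under the stricter filter, which Camp fails), and their part in the list counts was not tested. Of 17 genes of the IL-4 and IL-13 receptor pathway, 4 were on the panel and 3 were tested. Il4, the ligand, lay between 1.00 and 29.3 normalized counts (median 2.72), was not tested and is named after its values were seen. Jak3, the kinase of the common gamma chain, averaged 176 with entinostat against 93.9 normalized counts in vehicle (log2 difference 0.92 ± 0.17, adjusted p = 0.00305), and Socs3 averaged 205 against 95 (1.27 ± 0.40, adjusted p = 0.02). These 2 of 3 stood beside 36.2% of all 420 genes called higher, and the median of the 3 was 0.92, beside 0.50 for all genes. With entinostat plus anti-PD-1 the same 2 of 3 passed (0.57 ± 0.17, adjusted p = 0.0276, and 1.24 ± 0.40, adjusted p = 0.0352), and with anti-CTLA-4 both were lower (-0.85 ± 0.13, adjusted p = 0.00118, and -0.91 ± 0.31, adjusted p = 0.0301). Under median centring 1 of the 3 was higher with entinostat, under TMM 0 were, and without vehicle samples V1 and V2 1 was.

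Of 20 genes known to be induced by IL-4 through STAT6 in mouse macrophages, 15 were on the panel, 7 were tested and 4 were higher with entinostat, beside 36.2% of all 420 genes. The median over the 7 was 1.27, beside 0.50 for all genes, and 1.05 over the 6 that passed the stricter filter on low values. Clec7a, the beta-glucan receptor Dectin-1, rose by 1.67 ± 0.45 (adjusted p = 0.0106), Il1rn, the IL-1 receptor antagonist, by 1.27 ± 0.48 (adjusted p = 0.0422), Tgm2, transglutaminase 2, by 0.84 ± 0.27 (adjusted p = 0.0223) and Ptgs1, cyclooxygenase 1, by 0.60 ± 0.18 (adjusted p = 0.0176). Of the 7, 3 were higher with entinostat plus anti-PD-1, beside 20.5% of all genes, and 4 were lower with anti-CTLA-4, beside 30.0%. Under median centring 1 was higher with entinostat, under TMM 1 was higher and 1 lower, and without vehicle samples V1 and V2 0 passed.

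Of 10 genes of arginine and nitric oxide metabolism 1 was on the panel. Gch1, which makes the cofactor of nitric oxide synthases, averaged 33.0 normalized counts with entinostat against 20.8 in vehicle. It entered the test only because its entinostat mean lay above the limit of 29.3, with 20.8 to 27.0 in the other groups, so that its call there (0.65 ± 0.22, adjusted p = 0.0267) is no test of a change. It did not pass with the background subtracted (0.36) or under median centring (0.11), quantile normalization (-0.085) or TMM (-0.050). Of 13 inducers of Nos2, 11 were on the panel, 9 were tested and 8 were higher with entinostat, beside 36.2% of all 420 genes. They included Il1b (1.68 ± 0.40, adjusted p = 0.00796), Myd88, the adaptor of Toll-like receptors (1.38 ± 0.32, adjusted p = 0.00796) and Tlr4 (1.22 ± 0.32, adjusted p = 0.0104). The median of the 9 was 1.09, beside 0.50 for all genes, and 5 of 9 were higher under median centring, 4 under TMM and 4 without vehicle samples V1 and V2. With entinostat plus anti-PD-1 5 of 9 were higher, beside 20.5% of all genes, and with anti-CTLA-4 5 were lower, beside 30.0%.

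Of 9 genes of the IL-10 pathway 3 were on the panel and tested, and all 3 were higher with entinostat, beside 36.2% of all 420 genes. Il10ra, the ligand-binding receptor chain, averaged 373 normalized counts against 118 in vehicle (1.85 ± 0.43, adjusted p = 0.00796), and Stat3 averaged 808 against 647 (0.33 ± 0.11, adjusted p = 0.0218), with Socs3 as above. Under median centring and quantile normalization 2 of these 3 were higher, and under TMM or without vehicle samples V1 and V2 1 was. With entinostat plus anti-PD-1 2 were higher, beside 20.5% of all genes, and with anti-CTLA-4 all 3 were lower, beside 30.0%.

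Of 18 other suppressive effectors of myeloid cells, 12 were on the panel, 11 were tested and 7 were higher with entinostat, beside 36.2% of all 420 genes, with a median over the 11 of 0.99, beside 0.50 for all genes. They included Cebpb, a transcription factor of emergency granulopoiesis (0.99 ± 0.22, adjusted p = 0.00769), S100a9 (1.85 ± 0.44, adjusted p = 0.00796) and S100a8 (1.83 ± 0.46, adjusted p = 0.00911). S100a8 and S100a9 are also in the neutrophil list. Of the 11, 5 were higher with entinostat plus anti-PD-1, beside 20.5% of all genes, and 7 were lower with anti-CTLA-4, beside 30.0%. Under median centring 4 of 11 were higher with entinostat, under TMM 2, and without vehicle samples V1 and V2 2. In none of these 6 lists did the unweighted limma fit or edgeR call a gene for entinostat plus anti-CTLA-4 or for the triple combination against vehicle, except that with sample weights in limma genes of 5 of the 6 lists were higher in the triple combination. With the cartridge as a block no gene of these lists was called for the anti-CTLA-4 main effect, where 0 of all 420 genes were.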

How the data were processed

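The deposited table holds 1 value per gene and sample for 655 endogenous and 20 housekeeping genes, 8 negative and 6 positive controls from the NanoString nCounter assay, which counts barcoded probes without amplification. Endogenous values are normalized counts, a signal scaled by 1 factor per sample by the authors before they deposited it, as the values show; how and with which software is not stated in the sources read, and limma is the tool that the submitters' processing notes list. No value is below 1. Every sample's values up to 200 were whole multiples of its own step, in 100.0% of cases within 0.1 count, which gave back barcode counts and the depth of each sample. The control rows hold whole numbers and look unscaled.

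Genes were tested where a group's mean lay above the background limit (2 SD above the mean of the negative controls, in log2), which left 420 of 655. Log2(normalized count + 1) was modelled over all 22 samples by 5 group means (limma 3.58.1, R 4.3.3), and p-values were adjusted by Benjamini and Hochberg over the 420 genes, with a threshold of 0.05. The contrasts were each treated group against vehicle, the main effects of the antibodies and their interaction among the entinostat groups, and an F test. Sums of markers and per-sample limits came from Python 3.11.15. The count test on the recovered reads, the quasi-likelihood test of edgeR 4.0.16, called 151 genes for entinostat against vehicle with lane factors and 189 with TMM factors, against 168 in limma. No 2 samples of a group agreed within counting noise.

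Genes named besides the 5 members were, in each list and comparison, at most 4 called genes with the smallest p, and the 5 genes most correlated with each tested member. Ly6g, Camp, Il4 and the markers that check the labelled cell type were named outside this rule, with their values seen. Some genes that this rule names are not reported here. The members, gene lists and marker lists were chosen with earlier results of these data known, so they support nothing by themselves. The alternatives were other scalings, filters, pseudocounts and background rules, cartridge and replicate blocks, sample weights and samples left out. Median centring for the correlations and for the groups that do not overlap was chosen after seeing the data. Promoter sequences and annotation are from RefSeq. For 4 columns the name, with its replicate number, stands on 2 columns each, so that the number does not tell them apart. They were called a and b.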

Additional observations from a re-analysis of the deposited data

Results flagged for a closer look

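On the deposited scale the added effect of anti-PD-1 on Il4ra had opposite directions with and without anti-CTLA-4, and the sign of the difference changed under other scalings (-0.067 with median centring and -0.10 with TMM). All 4 samples of the triple combination lay above the mean of the entinostat plus anti-CTLA-4 samples on the log2 scale. All 4 samples of entinostat plus anti-PD-1 lay below the mean of the entinostat samples. In normalized counts triple combination sample a (258.0) lay below the mean of entinostat plus anti-CTLA-4 (259.8). Mean log2 values with against without anti-PD-1 were 8.447 against 7.986 with anti-CTLA-4 present, and 8.507 against 8.621 without it. The difference between these effects was 0.58 ± 0.32 on the log2 scale (SE), and the test of the difference itself in limma gave an adjusted p of 0.263. The median of all 420 genes for the same difference was 0.61. Of 25 sets of a gene in a group of 4 to 6 samples, none held a sample far enough from the others to be listed here, where chance alone would list about 1 in 20.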

How the results depend on the processing

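Of 847 values of Arg1, Il4ra and Stat6 under alternatives, 704 kept direction and side of the threshold, 49 lost the call, 19 gained one and 75 changed sign, 26 of these with 1 replicate left out. The cause was not tested unless fewer samples or genes show it. Members called for entinostat against vehicle (2) numbered 0 with median centring, quantile normalization, TMM and without vehicle samples V1 and V2, and 1 with the replicate block; for anti-PD-1 plus entinostat (0) they numbered 1 with the stricter filter, 2 with sample weights and 2 with vehicle sample 3 and triple combination sample a left out. For the triple combination there was 1 with sample weights and for the interaction 3. For the anti-CTLA-4 main effect (1) there were 0 with median centring, quantile normalization, TMM and the cartridge block, and 2 with sample weights. In the F test (2) there were 0 with median centring, quantile normalization, TMM and the cartridge block, and 1 with no filter, edgeR lane factors, background subtracted, the replicate block and without V1 and V2. With 1 replicate left out the counts ran from 0 to 2 for entinostat, 0 to 2 with anti-PD-1, 1 to 2 for the anti-CTLA-4 main effect, and 0 to 2 in the F test. Il10 exceeded its limit in 2 samples at 3 SD.

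Signs changed as follows on the log2 scale. With median centring Arg1 was -0.49 (entinostat), -0.19 (triple combination) and 0.0064 (anti-CTLA-4 effect), Il4ra 0.050 (anti-CTLA-4 effect) and -0.067 (interaction), and Stat6 0.069 (entinostat plus anti-CTLA-4), -0.18 (triple combination), -0.063 (anti-PD-1 effect) and -0.38 (interaction). With quantile normalization Arg1 was -0.61 and -0.54 (entinostat, triple combination), Il4ra 0.10 (anti-CTLA-4 effect), and Stat6 -0.18, -0.057 and -0.21 (triple combination, anti-PD-1 effect, interaction). With edgeR lane factors Arg1 was -0.093, 0.012 and -0.20 (entinostat, with anti-PD-1, triple combination) and Stat6 -0.00027 and -0.0066 (triple combination, anti-PD-1 effect). With TMM Arg1 was -0.69 and -0.35 (entinostat, triple combination), Il4ra -0.025, 0.058 and -0.10 (entinostat, anti-CTLA-4 effect, interaction), and Stat6 -0.0079, -0.24, -0.0075 and -0.38 (entinostat, triple combination, anti-PD-1 effect, interaction). With the background subtracted Arg1 was -0.13 and -0.17 (entinostat, triple combination) and Stat6 -0.010 and -0.0043 (triple combination, anti-PD-1 effect). Without V1 and V2 Arg1 was -0.022 and -0.024 (entinostat, triple combination), Il4ra -0.099 (entinostat plus anti-CTLA-4) and Stat6 -0.13 (triple combination). With the cartridge block Arg1 was 0.032 and -0.057 (with anti-PD-1, triple combination) and Il4ra -0.066 (entinostat plus anti-CTLA-4); on cartridge 1 alone Arg1 was 0.061 (with anti-PD-1) and Stat6 -0.082 (triple combination), and on cartridge 2 alone Arg1 was -0.11 (triple combination). With vehicle sample 3 and triple combination sample a left out Arg1 was 0.022 (with anti-PD-1), and with sample weights Il4ra was -0.033 (entinostat plus anti-CTLA-4). With 1 replicate left out Arg1 ran from -0.18 to 0.28 (entinostat), -0.73 to 0.14 (with anti-PD-1) and -0.18 to 0.28 (triple combination), Il4ra from -0.18 to 0.11 (entinostat plus anti-CTLA-4), and Stat6 from -0.33 to 0.047 (entinostat plus anti-CTLA-4), -0.037 to 0.15 (triple combination) and -0.052 to 0.14 (anti-PD-1 effect).

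Over 24 pairs of samples with the same number, r of their deviations from the group means ran from -0.54 to 0.525 (median -0.0715) and exceeded 0.1 in 10. Pairs with different numbers ran from -0.72 to 0.656. With r this wide without a shared number, the check cannot show whether samples with the same number belong together. With the replicate block as a term the entinostat difference was 0.54 for Il4ra (adjusted p = 0.0396) and 0.47 for Stat6 (adjusted p = 0.0632); Arg1 was -0.022 (entinostat) and -0.28 (triple combination), Il4ra -0.24 (entinostat plus anti-CTLA-4) and Stat6 -0.15 (triple combination).

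The split of calls over all 420 genes for entinostat was 152 higher and 16 lower as deposited, 95 and 81 with median centring, 94 and 83 with quantile normalization and 60 and 129 with TMM; for the anti-CTLA-4 effect it was 9 and 126, then 77 and 102, 77 and 92, and 108 and 102. Without V1 and V2 54 genes passed for entinostat, against 168. Nos2 and Il10 had at most 37 and 18 barcode counts in any of the 22 samples. In triple combination sample 2, the shallowest, 1 count is worth 9.78 normalized counts.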

Other observations

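Markers of other cells on the panel also differed between entinostat and vehicle samples on the deposited scale. In this comparison 36.2% of all 420 tested genes were called higher and 3.81% lower, and the median of all genes was 0.50. As given above, the calls over all genes shifted with the scaling and without V1 and V2. Which cells carried the transcripts below was not tested. Itgax, the integrin of dendritic cells, was 1 of 2 tested dendritic cell markers that rose (log2 difference 1.44). Siglecf, the lectin of eosinophils, was the 1 tested marker of its list (1.44). That list had 8 markers on the panel, and the others did not pass the filter on low values, so this rise does not show more eosinophils. Of 3 tested endothelial markers, Sele and Selp, the selectins that capture leukocytes, rose (2.23 and 3.00; Selp is also stored in platelets). Of 4 tested fibroblast and matrix markers, Col3a1 rose (1.70) while Pdgfra and Col11a1 fell (-0.64 and -0.55). Of 10 listed T and NK cell markers 1 was on the panel, and of 5 B cell markers 1. Neither passed the filter on low values, which cannot show whether such cells were present. No gene of these lists was called in limma without sample weights for entinostat plus anti-CTLA-4 or for the triple combination against vehicle.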
